A study of Caenorhabditis elegans with 60 samples.

Results

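The comparison described here set a lin-61 mutant of Caenorhabditis elegans against a mutant of lin-61 and met-2, by H3K9me3 in early embryos. It used 12 of the 30 libraries of the series, an input and an H3K9me3 library from each of 3 chromatin preparations per genotype. They were chosen by strain label and by library series 2080, in which all 12 were made, and no wild-type library entered the test. The single mutant carried tm2649, an allele of lin-61 on chromosome I. The double mutant carried tm2649 and also n4256, an allele of met-2 on chromosome III, so both groups carried the lin-61 allele and differed, per the labels, in met-2. The embryos were harvested whole before the bean stage, so every value averages over all embryonic cells. The sample titles give H3K9me3 as the target, while the protocol text mentions LEM-2 antibody, and the titles were followed here. The labels speak of 2 biological replicates in one protocol and of 3 in another. The permutation p-values below rest on values per labelled preparation, 3 per genotype. Those of the window test, edgeR, rest on the spread between libraries of a group. In that test the input and H3K9me3 library of a preparation were not paired.

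H3K9me3, trimethylation of a lysine in histone H3, marks silent chromatin, and in worm embryos it covers repeat-rich chromosome arms more than gene-rich centres. MET-2 is the worm relative of mammalian SETDB1 and places the lower methylation states of this lysine, while SET-25 can add the third methyl group. LIN-61 is an MBT-domain protein that binds methylated H3K9 and has no methyltransferase activity of its own. The title of the series proposes separate routes through NRDE-3 and LIN-61 to the enzyme that makes H3K9me3. Setting the double mutant against lin-61 addresses which marked regions still need MET-2 once LIN-61 is absent.

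The strain labels were checked with the inputs. On III, where met-2 lies per the strain name, 3 windows at III 8376067 to 8377566 (genome build ce10) were nearly empty in the double mutant. Their input depth there was 0.057, 0.074 and 0.072 of the median lin-61 input in replicates 1, 2 and 3, and their H3K9me3 depth was 0.194, 0.085 and 0.057 of the lin-61 value. In lin-61 the same windows stood at 0.959 to 1.03 in input. The strains also differed away from met-2, because V 1645969 to 1647468 and V 12357423 to 12360922 were almost missing from lin-61 and present in the double mutant. In the other direction, V 16731905 to 16732404 was at 0.056 to 0.080 of the lin-61 input in the double mutant. At V 12357423 the lin-61 inputs held 0.029 to 0.033 of the double-mutant depth. The filter on even input left these windows out of the results given here, and no window checked the lin-61 allele, which both strains carry. Total counts were 39698732 to 53498742 for the 6 inputs and 22265768 to 43856170 for the 6 H3K9me3 libraries, with the lowest in lin-61 met-2 replicate 1. Among the lin-61 preparations, replicate 3 was the flattest. The 99th percentile window of its H3K9me3 library was 2.48 times the median, against 3.25 and 3.33 in replicates 1 and 2 and 2.88 to 3.56 in the double mutant.

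Relative to the rest of the genome, the double mutant had less H3K9me3 than lin-61 in many windows and more in about as many others. Of 194888 windows of 500 bp that were tested, edgeR called 12.4% at an adjusted p of 0.05. H3K9me3 relative to input fell in 12152 windows (6.24%) and rose in 12039 (6.18%). The median log2 change was -0.89 among those that fell and 0.87 among those that rose, against 0.01 over all windows tested. Scaling between libraries holds the bulk of windows near 0, so a change shared by all windows cannot be seen. The near balance of falls and rises depends in part on this scaling. A window has at most 2 neighbours, and over all windows tested 6.24% fell and 6.18% rose. Against these shares, called windows lay side by side: 65.8% of those that fell and 68.8% of those that rose had a neighbour called in the same direction. Joined across at most 1 other window and kept where at least 3 windows were called, they formed 1157 loci with less H3K9me3 and 1086 with more, each with a median length of 2500 bp. The counts leaned on single preparations. Without lin-61 replicate 1, 2 or 3 they were 10550, 11491 and 16014 windows in all. In whole embryos, a lower level in every cell and a loss from some of the cells cannot be told apart.

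The windows that fell and those that rose lay in different parts of the chromosomes. Each chromosome was divided into 3 equal lengths, of which the outer ones are called arms and the middle one the centre. Of the windows that fell, 88.5% lay in autosome arms, where 54.4% of the tested windows lie, and 4.90% in autosome centres. Of the windows that rose, 49.2% lay in autosome centres, which hold 27.7% of the tested windows. A further 24.1% lay on X, which holds 17.9% of the tested windows, and 26.6% in autosome arms. In the arms 10.1% of windows fell and 3.02% rose, while in the centres 1.10% fell and 10.99% rose.

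The mean level shifted with the calls. A level here is the log2 ratio of H3K9me3 over input, on counts scaled to the library. In autosome arms it was 0.17, 0.18 and 0.11 in lin-61 replicates 1 to 3 and -0.04, 0.03 and 0.03 in the double mutant. In autosome centres it was -0.14, -0.15 and -0.06 in lin-61 and 0.06, 0.05 and 0.05 in the double mutant. The double mutant lay below lin-61 in the arms and above it in the centres, without overlap. The arms stood above the centres by 0.27 ± 0.09 in lin-61 (SD, n = 3) and by -0.04 ± 0.05 in the double mutant, so that the arms no longer stood out in any of the 3 double-mutant preparations. With 3 preparations a side the exact two-sided permutation test cannot go below p = 0.1, which this difference, also chosen after the values were seen, reached (n = 3 each).

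The size of the shift differed between chromosomes. The left arm of III changed most among the 18 regions. Its mean level was 0.35, 0.35 and 0.20 in lin-61 and -0.17, -0.07 and -0.09 in the double mutant, a difference of -0.41 ± 0.06 (SE), and 24.7% of its windows fell while 0.70% rose. On II the left arm, which started at 0.32 ± 0.04 (SD, n = 3), differed by -0.13 ± 0.03 (SE), with 9.30% of windows lower. The right arm of V held 2107 of the windows that fell, 15.7% of those tested there, while in its left arm 7.34% rose and 3.96% fell. The groups overlapped in the left arm of V, at 0.12 ± 0.03 in lin-61 and 0.17 ± 0.04 in the double mutant (SD, n = 3), and with a narrower definition of arms the difference there was -0.056.

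Among the centres, those of V, X and II gained most. In the centre of V the level was -0.12, -0.13 and -0.05 in lin-61 and 0.25, 0.24 and 0.26 in the double mutant. There 20.8% of windows rose and 0.47% fell. In the centre of X 15.3% rose, in that of II 11.3%, and in those of I, III and IV 6.33% to 6.86%. The centre of V stood above that of III by 0.01, 0.01 and -0.01 in lin-61 and by 0.26, 0.26 and 0.30 in the double mutant. The same contrast of X with III went from 0.04 ± 0.02 to 0.23 ± 0.01 (SD, n = 3), and that of the left arms of III and II from -0.02 ± 0.04 to -0.30 ± 0.03. These contrasts were chosen after the values were seen. They belong to a family of 6, which also holds that of autosome arms with centres, over all windows and over those marked in N2. For all 6 the groups did not overlap and the exact permutation test gave its smallest value, p = 0.1 (n = 3 each, 0.1 after Benjamini-Hochberg adjustment).

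Of the 18 regions, 15 had no overlap between genotypes, 9 with a lower and 6 with a higher mean level in the double mutant. The other 3 were the centre of III, the right arm of IV and the left arm of V. Each of the 15 gave the smallest exact two-sided p of 0.1 (n = 3 each), which is 0.12 after adjustment over 18. Scaled by library totals, every region kept its direction, but only 10 regions were then without overlap, 7 lower and 3 higher. Those 3 were the centres of II, V and X.

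**Figure D1:**
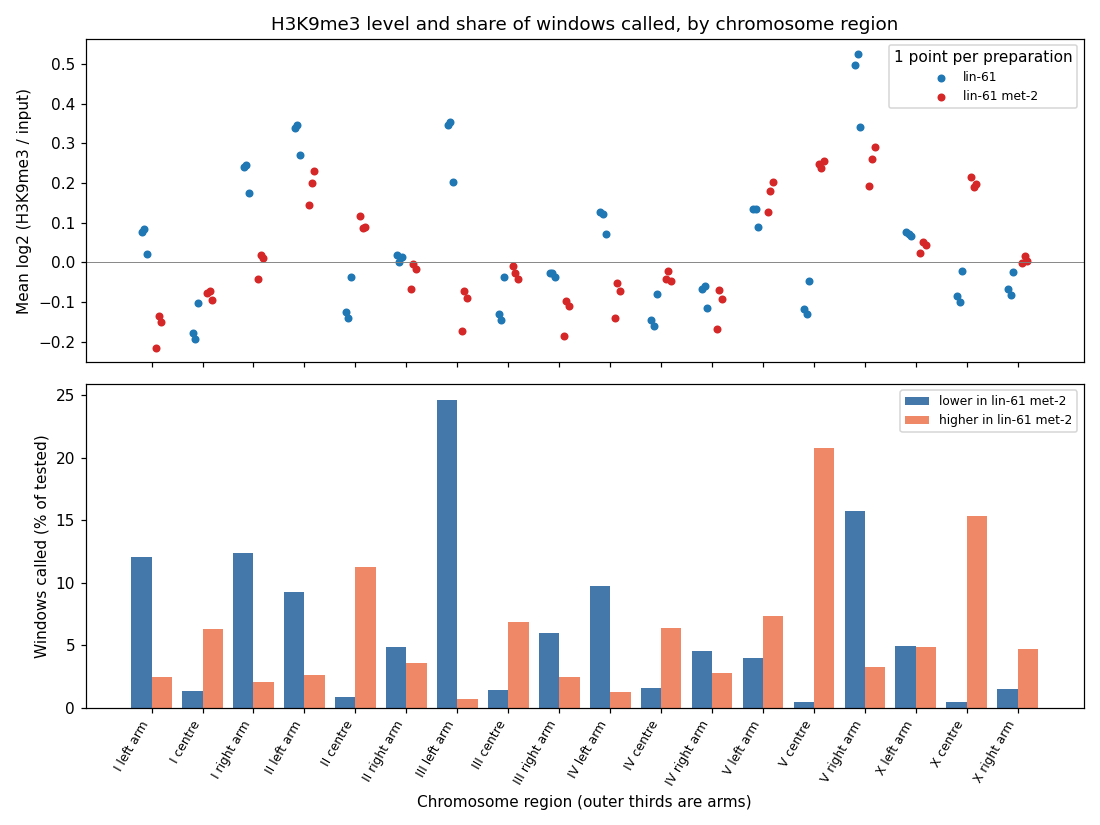
Mean log2 ratio of H3K9me3 over input in each of 18 chromosome regions (top, 1 point per preparation) and the share of windows called lower or higher in lin-61 met-2 (bottom, % of windows tested). The share of windows that fell peaks in the left arm of III at 24.7%, and the share that rose peaks in the centre of V at 20.8%.

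By distance from the nearest chromosome end, the double mutant was lower out to 4 Mb on the autosomes and higher from 5 Mb on. From 1 to 2 Mb the mean level was 0.26 ± 0.08 in lin-61 and -0.06 ± 0.06 in the double mutant (SD, n = 3), and 18.4% of windows fell there. From 4 to 5 Mb the groups overlapped, at 0.00 ± 0.02 and 0.04 ± 0.01. Among the autosomes only V reaches beyond 9 Mb, so the difference of 0.38 there, with 22.9% of windows higher, is again that of the centre of V. On X the turn came closer to the end, with overlap from 2 to 3 Mb and 18.6% of windows higher from 6 to 7 Mb.

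**Figure D2:**
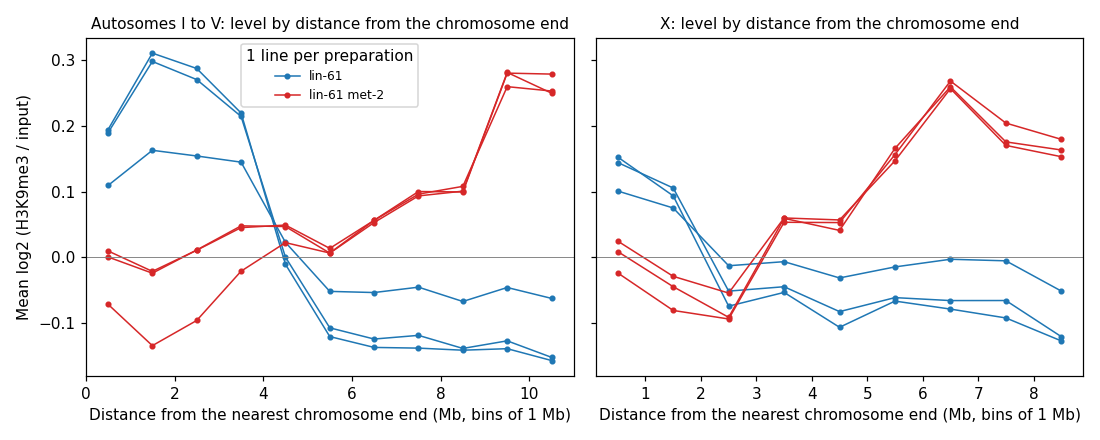
Mean log2 ratio of H3K9me3 over input in bins of 1 Mb from the nearest chromosome end, 1 line per preparation, for the autosomes (left) and X (right). Lin-61 lies above lin-61 met-2 in the outer bins and below it in the inner ones; the lines meet between 4 and 5 Mb on the autosomes and between 2 and 3 Mb on X.

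Across classes of windows, the median loss was larger where the wild type was more strongly marked. Windows were put into classes by the mean level of N2 replicates 2 and 3, which were sequenced in another library series and take no part in the comparison. Where N2 stood at 3 or above, the median over 8257 windows was 1.36, 1.40 and 1.04 in lin-61 and 0.77, 0.69 and 0.76 in the double mutant, and 36.4% of windows fell. From 2 to 3 in N2, the medians were 0.78 ± 0.11 and 0.36 ± 0.01 (SD, n = 3), and from 1 to 2 they were 0.46 ± 0.06 and 0.16 ± 0.01. The double mutant was lower in each of these classes. Where N2 was below 0 it was higher, at -0.08 ± 0.02 against -0.17 ± 0.03, where 6.71% of 105588 windows rose, close to the 6.18% of all windows tested, and 1.24% fell, against 6.24% of all. All 5 classes were without overlap, each with an exact two-sided p of 0.1 (n = 3 each, adjusted 0.1). The spread within lin-61 in the strongest class came from replicate 3, the flattest library, at 1.04.

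**Figure D3:**
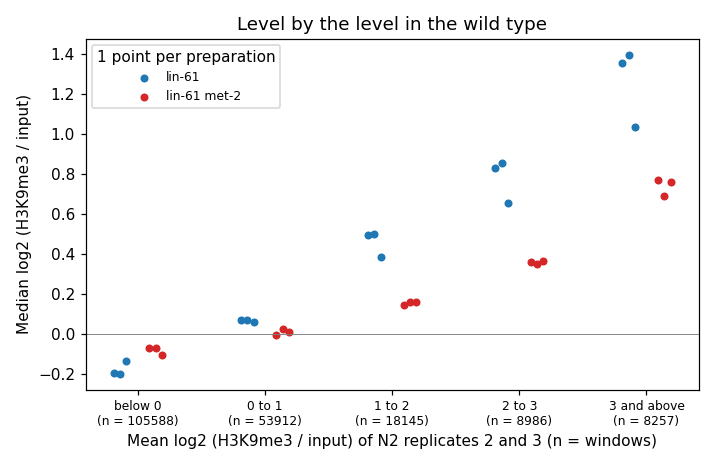
Median log2 ratio of H3K9me3 over input for windows grouped by their level in N2, 1 point per preparation. In the class at 3 and above, lin-61 lies at 1.04 to 1.40 and lin-61 met-2 at 0.69 to 0.77, and below 0 the order is the other way round.

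Together, 35388 windows were marked in N2, that is, at a mean level of at least 1. Over these the median level was 0.74, 0.75 and 0.59 in lin-61 and 0.34, 0.32 and 0.34 in the double mutant. The change was -0.36 ± 0.05 (SE), with an exact two-sided permutation p of 0.1 (n = 3 each). Of the marked windows 24.4% fell and 4.54% rose, against 6.24% and 6.18% of all windows tested. By chromosome the change ran from -0.22 ± 0.05 on II through -0.24 ± 0.04 on X and -0.31 ± 0.07 on V to -0.57 ± 0.07 on III. This order did not follow the N2 level. In N2 replicates 2 and 3 the medians over marked windows were 1.74 and 2.04 on III and 2.16 and 2.42 on V. On III 40.5% of the marked windows fell, and what remained was a median of 0.14 ± 0.02 (SD, n = 3). Marked windows in autosome centres did the opposite of those in the arms. The 967 of them stood at 0.51, 0.54 and 0.53 in lin-61 and at 0.84, 0.67 and 0.74 in the double mutant, and 30.7% rose while 7.45% fell. In the arms, 25.4% of 31766 marked windows fell and 2.97% rose. The difference between marked arm and marked centre windows went from 0.17 ± 0.10 to -0.44 ± 0.08 (SD, n = 3), with an exact permutation p of 0.1. This last contrast is among the 6 chosen after the values were seen.

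At a cut-off of 1, most enriched windows of one genotype were below the cut-off in the other. A mean level of at least 1 was found in 10716 windows of lin-61 and 8818 of the double mutant, of which 3224 were shared. These are 30.1% of the lin-61 set, where 8818 of all 194888 windows tested reached the cut-off in the double mutant. They are 36.6% of the double-mutant set, where 10716 of all 194888 reached it in lin-61. The sets thus shared more windows than their sizes alone would give. How far such sets overlap between preparations of 1 genotype was not tested. Over all windows, levels of preparations correlated at r = 0.79 to 0.82 within lin-61 and 0.61 to 0.72 within the double mutant. Between the genotypes r was 0.44 to 0.56. In lin-61, 91.8% of the enriched windows were marked in N2, in the double mutant 54.4%, against 18.2% of all windows tested. Autosome centres held 293 such windows in lin-61 and 2378 in the double mutant, and X held 839 and 1721. On III the number went from 1597 to 642 of 26940 windows tested, and 225 were shared. On V it was 3694 and 3120 of 40114, with 1358 shared. Single preparations gave 8978 to 13061 windows in lin-61 and 8190 to 13369 in the double mutant, so the total itself did not separate the genotypes. The count in autosome centres did, at 358 to 461 in lin-61 against 2107 to 3755. Across the windows the lin-61 level correlated with that of N2 at r = 0.70 and the double-mutant level at r = 0.41, as a description over 194888 windows that share libraries.

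The largest losses at single loci were in short domains on X and IV. At X 7077207 to 7079206, a stretch with an input depth 4.10 times that of the median window, the H3K9me3 libraries held 8356, 7362 and 4882 counts per window in lin-61 and 922, 1336 and 1323 in the double mutant. The inputs there held 959, 1225 and 854 counts in lin-61 and 999, 1034 and 1010 in the double mutant. As levels this was 3.52, 3.56 and 3.04 against 1.22, 0.89 and 0.70, where N2 stood at 4.90 and 5.26. The input was alike in both strains, which the filter on even input required within its limit. The mark was lower in each double-mutant preparation than in any lin-61 preparation, as the rule for a named locus required. The log2 change was -2.46 (median adjusted p = 2.3e-06, edgeR, the test that also chose the locus). Whether its input depth reflects several copies of the sequence was not tested.

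The centre of IV held a second such domain. At IV 8576807 to 8582806 the level was 3.07, 3.32 and 2.56 in lin-61 and 0.90, 0.63 and 0.44 in the double mutant, a change of -2.42. Next to it, IV 8570308 to 8575806 went from 2.40 ± 0.31 to 0.57 ± 0.12 (SD, n = 3). Joined, these loci span 12499 bp, with 22 of 22 tested windows lower. Loci were built from runs of called windows, so this share was given by the rule. N2 stood at 5.00 and 5.21 over the whole span, so lin-61 held less of the mark than N2 there and the double mutant less again, with the reservation that N2 came from another library series. At IV 11070797 to 11072796 the level went from 2.47 ± 0.18 to 0.82 ± 0.23. These are exceptions in their surroundings, because only 17 of the 1157 loci with less H3K9me3 lay in autosome centres, whereas 1077 lay in autosome arms and 63 on X.

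The longest named losses lay on the arms. Over all losses the median length was 2500 bp in autosome arms and 2000 bp in the 17 loci of autosome centres. The longest was V 18738396 to 18764395, with 26000 bp, where the level was 2.02, 2.08 and 1.52 in lin-61 and 0.38, 0.49 and 0.53 in the double mutant. The next were V 19403393 to 19428392 and III 1163098 to 1187597, which went from 1.64 ± 0.34 to 0.47 ± 0.05 and from 1.47 ± 0.22 to 0.27 ± 0.09 (SD, n = 3). X 113737 to 126236, near the left end of X, went from 1.93 ± 0.36 to 0.27 ± 0.05. At some arm loci the level in the double mutant was below 0, on counts scaled to the library. At III 1087099 to 1089098 the level was 1.43 ± 0.32 in lin-61 and -0.13 ± 0.14 in the double mutant (SD, n = 3), and at II 2817502 to 2819001, the largest loss on II, it was 1.07 ± 0.21 and -0.39 ± 0.16. Both had been marked in N2, at 2.85 and 1.89. The remaining named losses, at V 18471397, V 19040895, IV 14207283 and X 12276685, changed by -1.62 to -2.07. In each of the 14 named losses lin-61 replicate 3 was the lowest lin-61 preparation.

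The gains reached smaller log2 values and stood on lower starting levels. The largest was V 6164450 to 6178949, with 14500 bp. Its H3K9me3 libraries held 138, 113 and 111 counts per window in lin-61 and 324, 488 and 646 in the double mutant, against inputs of 129, 163 and 125 and of 143, 155 and 149. The level went from 0.69, 0.65 and 0.53 to 2.53, 2.20 and 2.53, a change of 1.87 (median adjusted p = 4.99e-05, edgeR, which also chose the locus). N2 had stood at 1.37 and 1.48, so the double mutant lay above both N2 preparations and lin-61 below both.

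The named gains spanned a range of N2 levels, from -0.32 to 2.14. At the lower end, N2 had no enrichment. V 10321932 to 10326931 was at -0.36 and -0.24 in N2 and at 0.14, 0.08 and 0.27 in lin-61, and stood at 1.93, 1.58 and 1.81 in the double mutant. IV 7626312 to 7628311 went from -0.19 ± 0.12 in lin-61 to 1.42 ± 0.14, and V 9680435 to 9686434 from 0.11 ± 0.09 to 1.60 ± 0.13 (SD, n = 3), both with N2 below 0. V 7073446 to 7081445 was of the same kind. At the upper end, N2 was marked, lin-61 was lower and the double mutant was again near or above the N2 level. II 7080984 to 7083982 was at 2.03 and 2.26 in N2, 0.79, 0.57 and 0.44 in lin-61 and 2.28, 1.86 and 2.23 in the double mutant. II 12150962 to 12158961 was at 1.69 and 1.92 in N2, 0.32 ± 0.06 in lin-61 and 1.77 ± 0.20 in the double mutant. IV 4767824 to 4770323 and IV 10864298 to 10868297 had N2 means of 1.59 and 1.38 and reached 2.46 ± 0.34 and 1.95 ± 0.21. Between them, X 12750683, II 8111979, X 11462188 and III 9504563 had N2 means of 0.43 to 0.84. Over all 1086 loci with more H3K9me3, 167 (15.4%) had an N2 mean of at least 1, against 1013 (87.6%) of the 1157 with less. Among single windows the share was 13.3% of those that rose, 71.2% of those that fell and 18.2% of all tested. The gains thus lay slightly below the share over all windows.

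**Figure D4:**
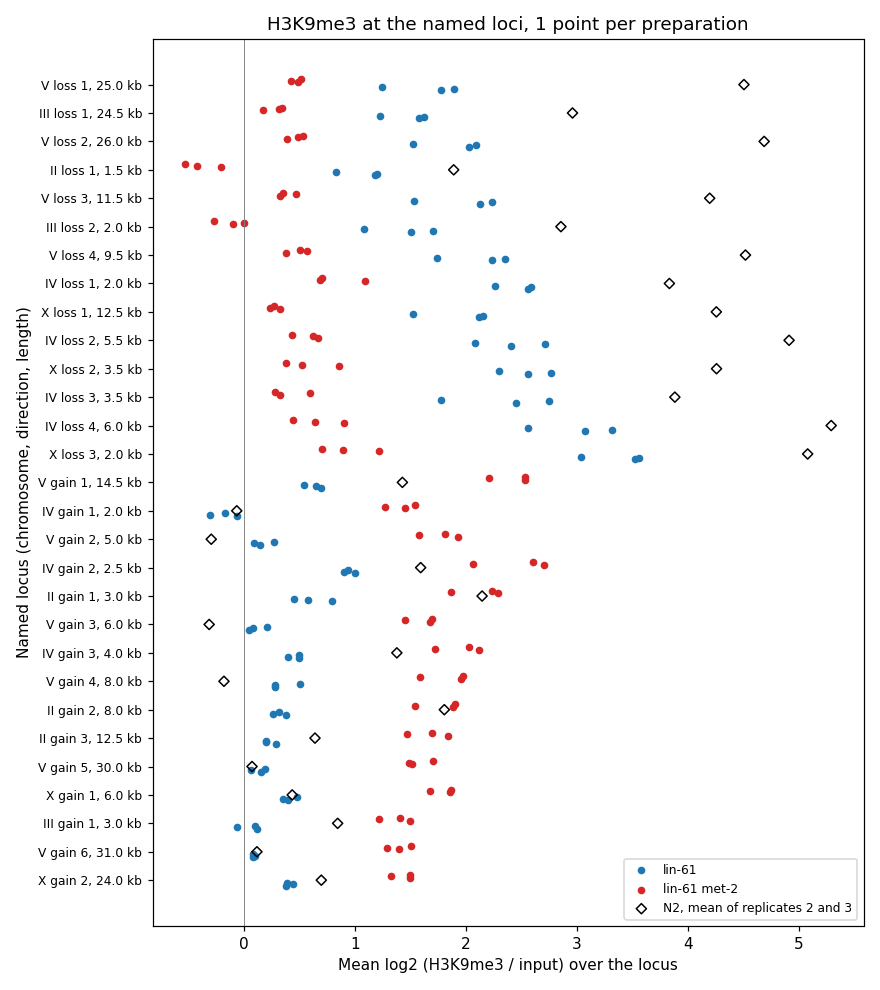
Mean log2 ratio of H3K9me3 over input at the 29 named loci, 1 point per preparation, with the N2 mean as an open diamond; loci are labelled by chromosome, direction and length and ordered by log2 change. At every locus the 3 preparations of one genotype lie to one side of the other 3, as the naming rule required, and the N2 diamonds lie above lin-61 at all 14 losses.

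The longest gains formed 1 stretch in the left arm of V. V 6133450 to 6163449 and V 6180450 to 6211449, of 30000 and 31000 bp, flank the gain with the largest change described above. The 3 loci span 78000 bp, joined after their positions were seen. Of 149 tested windows in the span, 142 rose, a share largely given by the rule that built the loci from called windows. The mean level was 0.22, 0.19 and 0.20 in lin-61 and 1.64, 1.52 and 1.76 in the double mutant, while N2 was at 0.32 and 0.33. In N2 the mark sat in a narrow peak near the middle of the span, and in the double mutant several further peaks stood on both sides of it. X 11462188 to 11486187, with 24000 bp, was the next longest gain, from 0.40 ± 0.03 to 1.43 ± 0.10 (SD, n = 3). The largest changes on X and III among the gains were at X 12750683 to 12756682, at 1.42, and at III 9504563 to 9507562, at 1.36, and II 8111979 to 8124478 changed by 1.48.

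**Figure D5:**
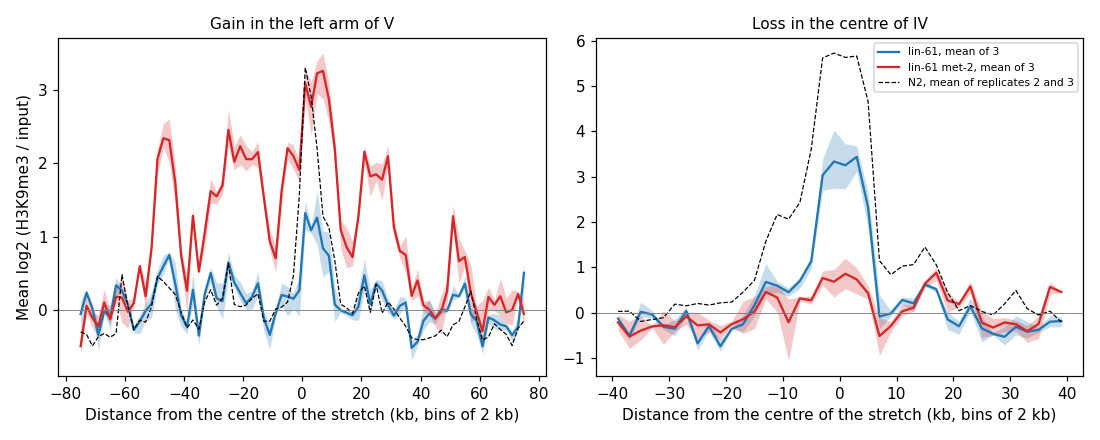
Mean log2 ratio of H3K9me3 over input in bins of 2 kb around the centre of the 78000 bp gain in the left arm of V (left) and of the 12499 bp loss in the centre of IV (right). Lines are means of 3 preparations, shading their range, and the dashed line is the mean of N2 replicates 2 and 3; the gain has several peaks beside the one in N2, and the loss leaves lin-61 met-2 at a mean of 0.61 where lin-61 stood at 2.69.

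All 29 named loci kept their direction and a median adjusted p under the threshold in each of the 17 alternatives in which they were refitted, including the omission of each preparation in turn. The loci had been chosen for large or long changes in the same counts, with the genotypes separated. This outcome was therefore close to given and is not independent support. The stricter threshold of 0.01 and other pseudocounts were not applied to them. No gene or repeat names were given to the loci, since the annotation at hand is of another genome build.

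Chromosome ends behaved mostly like arms. Of the outer 50 kb at 10 ends of II, III, IV, V and X, 6 were lower in the double mutant without overlap and 1 was higher. The left end of III went from 0.39 ± 0.13 to -0.08 ± 0.10 and the left end of X from 0.23 ± 0.04 to -0.16 ± 0.07 (SD, n = 3). The right end of X was the higher one, at 0.20, 0.24 and 0.21 in lin-61 and 0.41, 0.38 and 0.38 in the double mutant. The right arm of X was also higher without overlap, at -0.06 ± 0.03 and 0.01 ± 0.01 (SD, n = 3). Each of the 7 had an exact two-sided p of 0.1 (n = 3 each), or 0.143 after adjustment over 10 ends. The left end of IV rests on 9 windows.

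Windows with unusual coverage were compared as a group. In the 107 nuclear windows with an input of at least 2 times the median, the median level was 0.45, 0.53 and 0.29 in lin-61 and 0.22, 0.23 and 0.18 in the double mutant, and 26.2% of them fell while 4.67% rose, against 6.24% and 6.18% of all windows tested. In 5851 windows with less than 0.5 of the median input it was 0.42 ± 0.02 and 0.23 ± 0.03 (SD, n = 3). The 28 mitochondrial windows, which hold no nucleosomes, had a median of -1.60, -1.59 and -1.70 in lin-61 and -1.24, -1.27 and -1.32 in the double mutant. edgeR called 0 of them, with 5 at an unadjusted p under 0.05, and DESeq2 and limma called 0. Their mean level differed by 0.33 ± 0.06 (SE) between the genotypes, against 0.35 ± 0.03 in the centre of V, and its part in the gains was not tested.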

How the data were processed

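The authors deposited a table of raw counts in genomic windows of 500 bp. Each library has 2 run records in the labels and 1 column in the table. The genome build is ce10 per the submitters' processing notes; the aligner, the counting tool and the handling of duplicates and of reads with several matches are not given in the sources used here. Of 200579 windows, 194888 were tested, those with a mean input of at least 20 counts in both genotypes and a mean input within 1.5 times between them. edgeR 4.0.16 (R 4.3.3) fitted the 12 libraries as 4 groups with TMM factors of 0.942 to 1.05. The quasi-likelihood test was of the difference between genotypes in H3K9me3 minus input, with Benjamini-Hochberg adjusted p-values over all windows and a threshold of 0.05.

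Levels are log2 ratios on TMM-scaled counts with a pseudocount of 8. They are relative within a library and are not absolute amounts of the mark. Set averages per preparation were compared by exact two-sided permutation tests. N2 replicate 1 was not used, because earlier results of these data showed it against its labels. N2 libraries were scaled apart from the others, so levels set beside N2 cross separate scalings.

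A locus was a run of at least 3 called windows with gaps of at most 1 window and no overlap between the preparations of the genotypes. Named were, on II, III, IV, V and X, the 10 largest mean changes and the 3 longest loci per direction, and the largest change per direction on each chromosome. Members, lists and rules were chosen with earlier results of these data known. In a test on simulated data for this comparison with 194888 windows, 47 of 100 changes of 2-fold and 100 of 100 of 4-fold were recovered, with 14 false calls. The simulated libraries were independent, shared a dispersion of 0.0155, and only these windows were changed. The H3K9me3 libraries alone gave a dispersion of 0.033, so these rates need not hold for the real data. The libraries were amplified by PCR, per the labels' protocols, which mention no molecular identifiers. Alternatives covered scaling, filters, DESeq2 1.42.0, limma 3.58.1, pairing, pseudocount and the omission of each preparation.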

Additional observations from a re-analysis of the deposited data

How the results depend on the processing

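Called windows numbered 24191, and 21576 to 29772 over the alternatives with all preparations at the same threshold, which covered other scalings and filters, DESeq2, limma, H3K9me3 libraries alone and pairing. At an adjusted p of 0.01 there were 10983, 5327 lower and 5656 higher. Omitting 1 preparation gave 10550 to 27244 in all, 4713 to 14287 lower and 5837 to 12957 higher. The lowest counts were without lin-61 replicate 1, and the cause was not tested. At the threshold of 0.05 with all preparations, the share of lower calls was 49.4% to 55.6%. The change over windows marked in N2 was -0.61 after division by the SD of each preparation, where the unit differs, -0.45 for windows at 2 or more in N2 and -0.41 to -0.33 with 1 preparation omitted. For windows of high input it was -0.36 after that division, -0.51 at 3 times the median (38 windows) and -0.28 to -0.16 with 1 preparation omitted. Values that reversed sign were those of the left arm of V with narrower arms (-0.056), of the left end of II with factors from 10 kb (-0.011), and of the right end of IV after division by the SD (0.0048) and with 100 kb (0.020). With 1 preparation omitted, the left end of II ranged from -0.020 to 0.033 and the right end of IV from -0.049 to 0.031. With the replicate block, the replicate number as a term gave 22179 windows and the chromatin preparation as a block 21576. Exact paired sign-flip tests of 3 differences cannot go below p = 0.25. Across genotypes, deviations of same-numbered preparations correlated at -0.01, 0.01 and -0.04, so no shared deviation was seen. With 3 preparations per genotype this cannot tell whether same-numbered ones were handled together. GC content could not be examined for want of a genome of this build.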
